A study of Mus musculus with 2 samples.

Results

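The genes described here code for the mitochondrial respiratory chain and ATP synthase, read in single mouse CD4+ CD25+ cells of lymph node and spleen. Members were chosen by gene symbol alone: Nduf (complex I), Sdh (complex II), Uqcr and Cyc1 (complex III), Cox4i to Cox8 (complex IV), Atp5 (complex V), and the protein genes of mitochondrial DNA. The rule took 111 rows of the 31056 in the gene table, 98 nuclear and 13 mitochondrial. These rows carry 110 distinct symbols, because Atp5o stands under 2 identifiers, of which 1 had no count in either library. By role, 98 rows are subunits and 13 are assembly factors.

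All cells came from healthy female mice with both copies of Myc flanked by loxP sites (Mycfl/fl) and with 1 Cre-carrying and 1 wild-type Foxp3 allele (Foxp3Cre/WT). Foxp3, whose promoter drives the recombinase, is X-linked and marks regulatory T (Treg) cells, so each animal holds Treg cells that read 1 allele or the other, Cre or wild type. The study asked how Myc-deficient and Myc-sufficient Treg cells compare. YFP-positive and YFP-negative cells were sorted together in a ratio that the sources used do not give, and each tissue was run as 1 library, from a number of animals that they do not give either. No cell carries a label of its Myc status. The only labelled groups are therefore lymph node (1 library) and spleen (1 library), and with 1 library a tissue no test of a difference could be made. Intervals below are 95% intervals. Those of levels, shares and ratios are exact and cover counting error only. Those of medians are binomial over members and reflect the spread among members, not counting error.

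The respiratory chain passes electrons from NADH (complex I) and succinate (complex II) through complex III to oxygen at complex IV, and ATP synthase (complex V) uses the proton gradient this builds. Complexes I, III, IV and V are assembled from proteins of both genomes, whereas complex II is coded by nuclear genes only. Treg cells are known to lean on oxidative phosphorylation, and Myc is known in other cells to raise genes of mitochondrial biogenesis.

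The lymph node library held 4820 cells after filtering, with a median of 2031 UMIs (counted molecules), and the spleen library 6543 cells with a median of 1935 UMIs. The 2 libraries shared 53 barcodes, 45 of them among the filtered cells. T cell and Treg marker sums were alike in both, at 3157 and 1771 CPM (counts scaled to the library total) in lymph node and 3196 and 1842 CPM in spleen. Single Treg genes were less so. Il2ra (134 against 184 CPM), Ctla4 (172 against 208) and Tnfrsf18 (375 against 410) were lower in lymph node than in spleen. Ikzf2 (691 against 654), Il2rb (290 against 277) and Foxp3 (110 against 108) were higher. Of the 4 haemoglobin genes, all were detected in lymph node, at 326 CPM together, and in spleen their sum was 0.961 CPM with Hba-a2 at 0. B cell genes summed to 158 CPM in lymph node and 114 CPM in spleen, and the 5 cycling genes to 338 and 262 CPM. The part of haemoglobin transcripts in the tissue differences below was not tested. Without B and CD8 cells the tissue median of nuclear members was -0.02, and without cycling cells -0.05, against -0.03 with all cells.

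Member transcripts took 5.11% of UMIs in lymph node and 5.09% in spleen. Of the 111 rows, 96 averaged at least 20 CPM over the libraries (84 nuclear and 12 mitochondrial), against 5048 of all 31056 rows. The highest was mt-Atp6, a proton-channel subunit of ATP synthase, at 6295 CPM in lymph node and 6428 CPM in spleen. The complex IV core subunits mt-Co3 and mt-Co1 followed, at 5455 and 4623 CPM in lymph node and 5373 and 4199.7 CPM in spleen. Among nuclear genes, Cox4i1 of complex IV was highest, with 996 CPM in lymph node and 1009.5 CPM in spleen, and Uqcrh, the hinge protein of complex III, came next at 901 and 885 CPM. These are 3′ counts of 1 UMI per captured molecule, so they are not divided by transcript length. The median subunit at or above the minimum had 166 CPM in nuclear complex I, 111 CPM in complex II, 258 CPM in nuclear complex III, 592 CPM in nuclear complex IV and 404 CPM in nuclear complex V. Nuclear subunits spanned a range whose low end was Ndufs1, an iron-sulfur core subunit of complex I, at 31.9 CPM. The plot of levels by complex shows that each complex kept its place in both tissues.

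**Figure D1:**
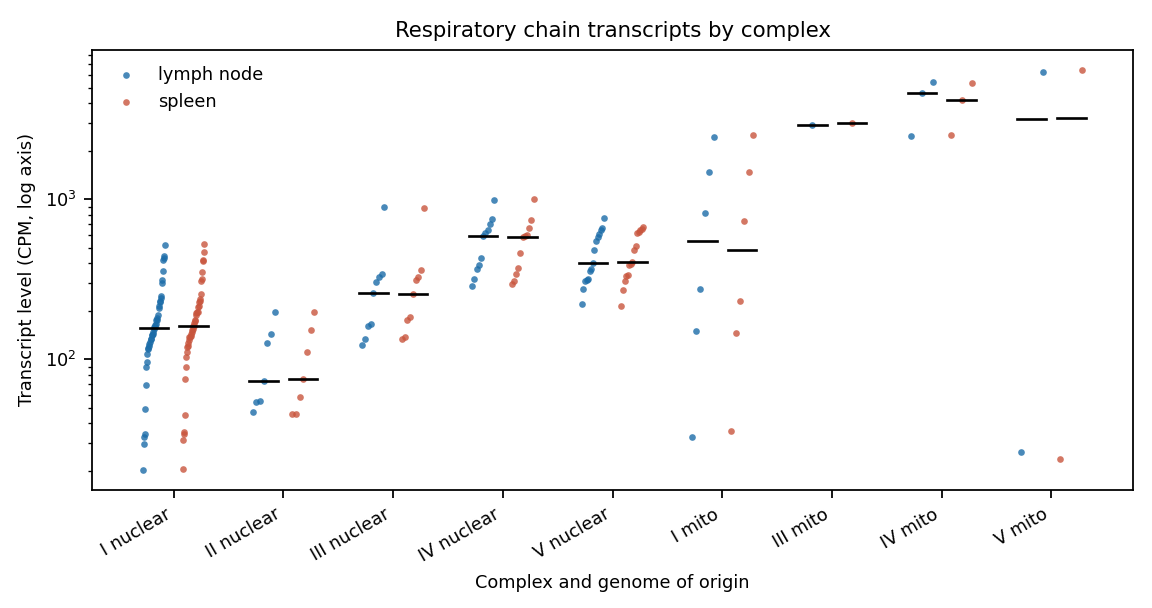
Transcript level of each member at or above 20 CPM on average (y axis, CPM, log axis) by complex and genome of origin (x axis), assembly factors included, with lymph node points left of spleen points and a black line at each median. Mitochondrially encoded genes of complexes III and IV lie above 2000 CPM, whereas mt-Atp8 and mt-Nd4l lie below 40 CPM in both libraries.

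Within the isoform families, the widely expressed form was present and the tissue-restricted form was near 0. Cox6a1 had 430.1 CPM in lymph node and 460.1 CPM in spleen, whereas Cox6a2, the heart and muscle form, was at 0 of 13053739 UMIs in lymph node, which allows up to 0.23 CPM, and at 0.24 CPM in spleen. Cox4i2 had 0.153 and 0.12 CPM, Cox7a1 0.613 and 0.721 CPM, and Cox6b2 3.37 and 3.55 CPM, and Cox8b, Cox8c, Cox7b2 and Ndufa4l2 had no count in either library. The other forms were Cox6b1 at 590 CPM in lymph node and 595 CPM in spleen, Cox7a2 at 367 and 340 CPM, and Cox8a at 644 and 593 CPM. The 3 genes for the identical c-ring subunit of ATP synthase were all expressed, Atp5g2 at 551 and 515 CPM, Atp5g1 at 311 and 339 CPM, and Atp5g3 at 223 and 217 CPM. Also below the minimum were the assembly factors Ndufaf1, Ndufaf5, Ndufaf6, Sdhaf3 and Atp5s, and mt-Nd6, the only member coded on the light strand, at 7.2 CPM in lymph node and 5.17 CPM in spleen.

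The lowest of the mitochondrial genes above the minimum were mt-Atp8, at 26.3 CPM in lymph node and 23.7 CPM in spleen, and mt-Nd4l, at 32.9 and 35.5 CPM. Both are made on a messenger shared with a longer partner whose reading frame starts before theirs ends, and their 3′ ends are shown because that overlap lies in the bases nearest the end of the gene. The last 60 bases of mt-Atp8 (chrM:7910-7969) and of mt-Nd4l (chrM:10114-10173) are printed 5′ to 3′ on the plus strand from the GENCODE M21 transcripts (GRCm38). Capitals mark the 43 bases shared with mt-Atp6 and the 7 bases shared with mt-Nd4.
mt-Atp8: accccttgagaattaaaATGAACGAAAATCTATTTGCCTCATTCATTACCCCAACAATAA
mt-Nd4l: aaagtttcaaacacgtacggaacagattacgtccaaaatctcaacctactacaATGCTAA
A read in the shared bases cannot be assigned to 1 of the 2 genes, and the part of this in the low counts was not tested. Nuclear copies of mitochondrial genes and processed pseudogenes of several nuclear members also share sequence with them, and the sources used do not say how such reads were counted.

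Between tissues, the respiratory chain differed little. None of the 96 members at the minimum was 1.2-fold higher in lymph node than in spleen and none was 1.2-fold lower, against 5.51% and 4.97% of the 5048 genes at the minimum. Such shares depend on the level of a gene, and members were not matched for level. By counting interval, 12 nuclear members lay above 0 and 23 below, against 756 and 1007 of the 5048 genes. Of the mitochondrial members 4 lay above 0 and 3 below. The median log2 ratio of lymph node over spleen was -0.03 over the 84 nuclear members (95% interval of the median over members, -0.05 to 0.00), 0.01 over the 12 mitochondrial members and -0.02 over all genes. The summed mitochondrial complex IV transcripts were 12569 CPM in lymph node and 12081 CPM in spleen, a log2 ratio of 0.06 (0.05 to 0.07). Nuclear complex I was 7688 CPM in lymph node and 7895 CPM in spleen, a log2 ratio of -0.04 (-0.05 to -0.03). Sums and median ratios of nuclear members, here and below, include the assembly factors taken by the rule.

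Single members differed by less than 1.2-fold but beyond counting error. Higher in lymph node were mt-Nd3, a core subunit of complex I, at 274 against 230.5 CPM in spleen (log2 ratio 0.25, 0.18 to 0.32), and mt-Nd2, at 820.4 against 736 CPM (0.16, 0.12 to 0.19). The oxygen-reducing subunit mt-Co1 had a log2 ratio of 0.14 (0.12 to 0.15). The ATP synthase subunits Atp5k (311 against 271 CPM, 0.20) and Atp5e (769.5 against 675 CPM, 0.19), the complex IV subunits Cox8a (0.12) and Cox7a2 (0.11), and the complex II assembly factors Sdhaf4 (54.3 against 45.4 CPM, 0.26) and Sdhaf1 (127 against 111 CPM, 0.19) were higher too. Lower in lymph node were Ndufs1 (log2 ratio -0.21), Ndufa12 (-0.17) and Ndufb4 (-0.17) of complex I, Cyc1 (-0.13), Uqcrc1 (-0.13) and the Rieske protein Uqcrfs1 (-0.11) of complex III, Cox6a1 (-0.10) of complex IV, and Atp5o, the stalk protein of ATP synthase (276 against 308 CPM, -0.16). Of the pathway genes outside the rule, Cox17, which brings copper to complex IV, was highest in lymph node relative to spleen, at 237 against 184 CPM (0.36, 0.29 to 0.44). The ATP carriers Slc25a4 (-0.24) and Slc25a5 (-0.17) and the complex I assembly factor Ecsit (-0.31) were lower, and Ucp2, an inner-membrane carrier of the uncoupling protein family, was higher (0.15). Surf1, a complex IV assembly factor, was higher (0.19), whereas Etfa (-0.14), Ssbp1 (-0.17), which binds single-stranded mitochondrial DNA, and Coq10b (-0.21) were lower. Coq10b turned to 0.12 among cells with a Foxp3 or ICRE UMI. With 1 library a tissue, the library and the tissue cannot be told apart.

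Cells were then compared by which of 5 marker transcripts gave at least 1 raw UMI: Foxp3, ICRE (a recombinase feature the authors added to the gene table), Klrg1 (a surface receptor of effector Treg cells), Tnfrsf9 (4-1BB, a receptor raised on recent activation) and Ly6c1 (a surface protein of resting cells). Of lymph node and spleen cells, 20.9% and 18.9% had a Foxp3 UMI, 7.86% and 8.39% an ICRE UMI, 4.63% and 3.5% a Klrg1 UMI, 18.6% and 17.3% a Tnfrsf9 UMI, and 19.1% and 21% a Ly6c1 UMI. In the 110 lymph node and 106 spleen cells with at least 3 UMIs over 4 B cell genes, which should lack these transcripts, the shares were 14.5% and 10.4% for Foxp3, 7.27% and 2.83% for ICRE, 4.55% and 2.83% for Klrg1, 9.09% and 4.72% for Tnfrsf9, and 13.6% and 7.55% for Ly6c1. Those B cell barcodes had a median of 3120 UMIs in lymph node and 2338 in spleen. Unthinned shares of ICRE, Klrg1, Foxp3 and Ly6c1 in lymph node and of Klrg1 in spleen lay inside the 95% interval of the B cell share, so they were not clear of background. The shares of Tnfrsf9 in both libraries and of Foxp3, ICRE and Ly6c1 in spleen lay above it. With every cell thinned to 1200 UMIs the lymph node shares were 5.82% for ICRE and 2.61% for Klrg1, against 0.909% of lymph node B cell barcodes for each. Those of Foxp3 were 11.1% against 2.73%, and those of Ly6c1 13.6% against 5.45%. In spleen the thinned share of Klrg1 was 2.03% against 0.962%. No interval was computed for the thinned shares. A cell without a UMI of a marker is not shown to lack it, and whether the Cre allele also yields a captured Foxp3 transcript is not given, so neither gate gives a cell's Myc status. All gate comparisons below use cells thinned to 1200 UMIs.

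Across the gates, the ratio of mitochondrial to nuclear member UMIs was lowest in ICRE cells, 1.01 in lymph node and 0.928 in spleen. It was 1.22 and 1.04 in Klrg1 cells, 1.09 and 1.04 in Tnfrsf9 cells, 1.23 and 1.17 in Foxp3 cells, 1.12 and 1.09 in Ly6c1 cells. Cells with none of the 5 markers, 2005 of lymph node and 2702 of spleen, had ratios of 1.2 and 1.17. The gates overlap (67 lymph node and 91 spleen cells had both an ICRE and a Tnfrsf9 UMI, for example), so these are not separate populations.

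ICRE-detected cells without a Foxp3 UMI (335 in lymph node, 466 in spleen) carried less mitochondrially encoded complex IV transcript than Foxp3-detected cells without an ICRE UMI (963 and 1162). In lymph node the sum of mt-Co1, mt-Co2 and mt-Co3 was 10786 CPM in ICRE-detected cells and 13276 CPM in Foxp3-detected cells, with a log2 ratio of -0.30 (-0.35 to -0.25). In spleen it was 10002 CPM in ICRE-detected cells and 12611 CPM in Foxp3-detected cells, a log2 ratio of -0.33 (-0.38 to -0.29). Both libraries thus gave the lower sum in the ICRE gate, and the intervals of the ratios overlap. All genes had a median log2 ratio of 0.08 in lymph node and of 0.09 in spleen, and relative to these the sums lay at -0.38 and -0.43.

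All 3 complex IV genes took part in both libraries. mt-Co1 (chrM:5328-6872) had 3843 CPM in ICRE-detected and 5105 CPM in Foxp3-detected cells of lymph node (log2 ratio -0.41, -0.49 to -0.33), and 3441 and 4506 CPM in spleen (-0.39, -0.46 to -0.32). mt-Co3, a structural subunit, had log2 ratios of -0.26 in lymph node and -0.28 in spleen, and mt-Co2, which binds cytochrome c, -0.19 and -0.37. Also lower were mt-Atp6, mt-Cytb and mt-Nd4. In lymph node mt-Atp6 had 5816 against 6486 CPM (-0.16) and in spleen 5635 against 6621 CPM (-0.23). The log2 ratios of mt-Cytb of complex III were -0.14 and -0.15, and those of mt-Nd4 of complex I -0.20 and -0.17. Of the 6 mitochondrial complex I members at the minimum, 3 were higher and 3 lower in lymph node, and all 6 were lower in spleen. mt-Nd1 was not lower in lymph node, where it had 2609 against 2375 CPM (0.14, 0.03 to 0.24), and in spleen it had 2416 against 2420.4 CPM (-0.003, -0.09 to 0.09). Of the 12 mitochondrial members, 8 were lower in both libraries, against 1258 of 5044 genes, and the median log2 ratio was -0.15 in lymph node and -0.16 in spleen.

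**Figure D2:**
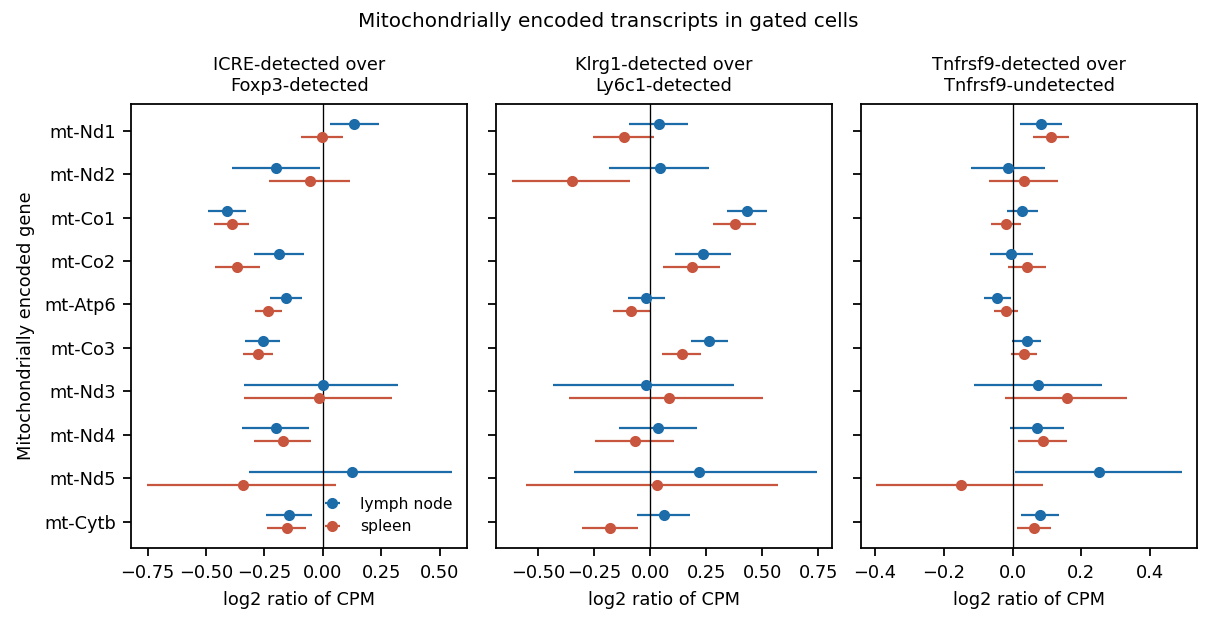
Log2 ratio of CPM for 10 mitochondrially encoded genes (rows) in 3 comparisons of gated cells, with lymph node in blue and spleen in red and bars for the 95% counting interval. mt-Nd4l, mt-Atp8 and mt-Nd6, which have few UMIs in the gated cells, are left out. In ICRE-detected over Foxp3-detected cells mt-Co1, mt-Co2, mt-Co3 and mt-Atp6 lie below 0 in both libraries, and in Klrg1-detected over Ly6c1-detected cells the 3 mt-Co genes lie above 0.

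Nuclear members as a group stood near other genes in this comparison. The median log2 ratio of nuclear members was 0.12 in lymph node (0.04 to 0.16) and 0.07 in spleen (0.04 to 0.15), close to that of all genes, and in spleen it turned to -0.05 when CPM was computed without mitochondrial and ribosomal protein UMIs, a scaling that moved the median of all genes to -0.03 in both libraries. Past 1.2-fold in both libraries, 8 of 84 nuclear members were higher, against 16.7% of all genes, and 2 were lower, against 10.1%. Of the 12 mitochondrial members none was higher and mt-Co1 alone was lower. By counting interval, 13 of 84 nuclear members lay above 0 in lymph node and 14 in spleen. Over all genes 505 of 5048 and 620 of 5044 did so. Intervals lay below 0 for 4 nuclear members in each library, against 360 and 387 genes. Shares past the fold depend on the level of a gene, and members were not matched for level. Summed nuclear complex I was 8206 CPM in ICRE-detected and 7322 CPM in Foxp3-detected cells of lymph node, and 8425 and 7525 CPM in spleen, with a log2 ratio of 0.16 in each. Ndufa13, the most abundant nuclear complex I subunit, had 587 and 454 CPM in lymph node (0.37) and 565 and 503 CPM in spleen (0.17).

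Ndufs4, which sits by the NADH-oxidising part of complex I, had 172 CPM in ICRE-detected and 123 CPM in Foxp3-detected lymph node cells (log2 ratio 0.48, 0.05 to 0.91), and 197 and 123 CPM in spleen (0.67, 0.31 to 1.03). Ndufa3, in its membrane arm, had 562 and 405 CPM in lymph node and 531 and 382 CPM in spleen, with a log2 ratio of 0.47 in both. Cox6a1 was higher by 0.38 and 0.32 on the log2 scale, and the ATP synthase stalk subunits Atp5h by 0.37 and 0.29 and Atp5j by 0.32 and 0.46. Atp5f1, another stalk subunit, went the other way, with 206 and 290 CPM in lymph node (-0.49) and 254 and 326 CPM in spleen (-0.36), as did the c-ring gene Atp5g2 (-0.29 and -0.28). Among genes that are no members, Slc25a4, which exchanges ADP for ATP across the inner membrane, had 62.2 CPM in ICRE-detected and 133 CPM in Foxp3-detected lymph node cells (-1.10, -1.77 to -0.48), and 96.6 and 165 CPM in spleen (-0.77, -1.23 to -0.34). Weighted to equal raw depth, the spleen log2 ratio of Slc25a4 was -0.06. Of the other pathway lists, past 1.2-fold in both libraries, Coq10b was higher and Coq9 lower among 7 electron carriers and quinone synthesis genes, Cox16 higher and Coa5 lower among 18 assembly factors, Polg and Slirp higher among 4 genes of mitochondrial DNA upkeep and expression, and Nrf1 higher among 3 biogenesis regulators. Over all genes the shares past 1.2-fold in both were 16.7% higher and 10.1% lower, and lists this short are not set apart by 1 or 2 genes.

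Several other measures moved with this gate. ICRE-detected cells had a median of 1622 raw UMIs in lymph node and 1684 in spleen, against 2892 and 2999 in Foxp3-detected cells. Weighted to equal raw depth, the mitochondrial complex IV log2 ratio was -0.36 in lymph node and -0.34 in spleen. The 5 cycling genes summed to 77.1 CPM in ICRE-detected and 211 CPM in Foxp3-detected lymph node cells, and to 75.1 and 239 CPM in spleen. Without cells that had a UMI of Mki67, Top2a, Birc5 or Ube2c, the log2 ratio was -0.29 in lymph node and -0.35 in spleen. In cells without a Klrg1 or Tnfrsf9 UMI it was -0.29 and -0.32. The cytosolic ribosomal protein genes had a median log2 ratio of -0.23 and -0.24, and the mitochondrial ribosomal protein genes 0.01 and 0.05. The part of ribosomal protein transcripts and of free RNA in the gate comparison was not tested.

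**Figure D3:**
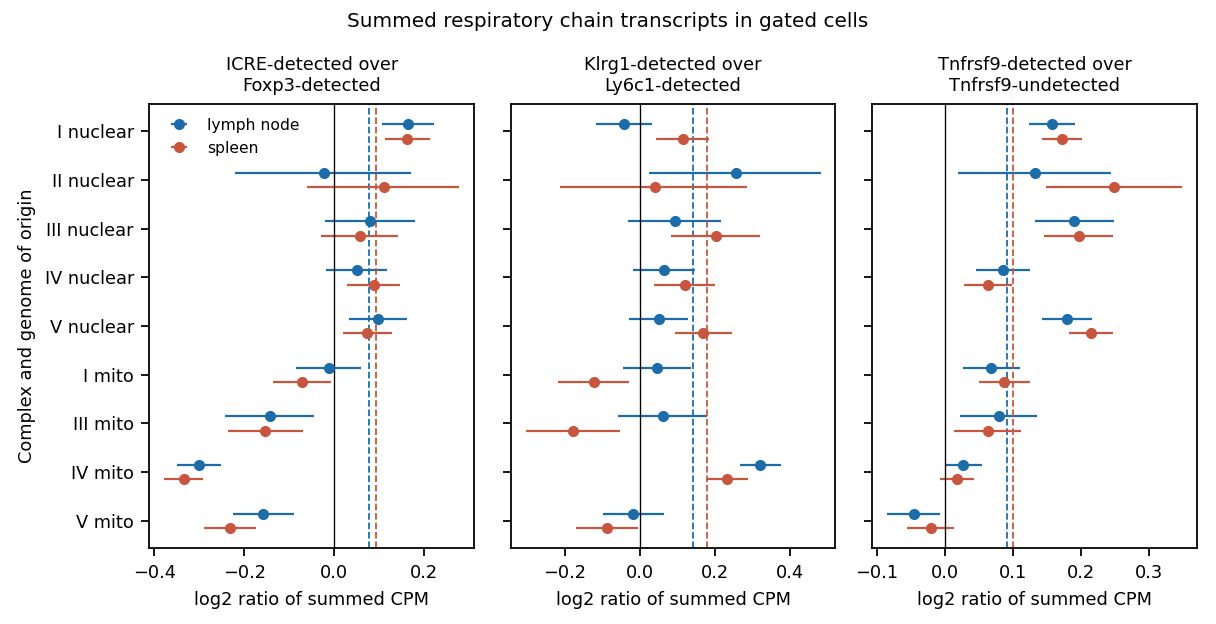
Log2 ratio of the summed CPM of each complex by genome of origin (rows), assembly factors included, in 3 comparisons of gated cells, with lymph node in blue, spleen in red, bars for the 95% counting interval and dashed lines at the median of all genes. Mitochondrial complex IV is lowest of the 9 sums in the ICRE comparison and highest in the Klrg1 comparison in both libraries, and in the Tnfrsf9 comparison nuclear complexes I, II, III and V lie above the dashed lines.

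Klrg1-detected cells without a Ly6c1 UMI (202 in lymph node, 191 in spleen) had a higher mitochondrial complex IV sum than Ly6c1-detected cells without a Klrg1 UMI (865 and 1267), by an amount that depended on the cells and the scaling. The sum was 14402 CPM in Klrg1-detected and 11523 CPM in Ly6c1-detected cells of lymph node (log2 ratio 0.32, 0.27 to 0.38), and 12814 and 10907 CPM in spleen (0.23, 0.18 to 0.29). mt-Co1 had 5516 and 4082 CPM in lymph node (0.43, 0.34 to 0.52) and 4682 and 3604 CPM in spleen (0.38, 0.28 to 0.47). The Klrg1-detected cells were the deeper ones, with a median of 3241 UMIs in lymph node and 3621 in spleen, against 1831 and 1961 in Ly6c1-detected cells. All genes had a median log2 ratio of 0.14 in lymph node and of 0.18 in spleen, so relative to these the sums lay at 0.18 and 0.05, and weighted to equal raw depth at 0.01 and -0.04. At equal raw depth the sum therefore lay near the median of all genes in both libraries. Among cells with a Foxp3 or ICRE UMI (98 Klrg1-detected and 221 Ly6c1-detected in lymph node, 107 and 311 in spleen) the log2 ratio was 0.13 in lymph node, where all genes had 0.17, and in spleen 0.19, where all genes had 0.16. Without mitochondrial and ribosomal protein UMIs in the scaling it was 0.16 in lymph node and 0.01 in spleen, where all genes had -0.02 and -0.04. For mt-Co1 alone the weighted log2 ratio was 0.30 in lymph node and 0.32 in spleen, which is 0.10 and 0.09 above the median of all genes.

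The other mitochondrial genes showed no shared direction in Klrg1-detected cells. mt-Co2 (0.24 in lymph node and 0.18 in spleen) and mt-Co3 (0.26 and 0.14) followed mt-Co1, although in spleen both lay below 0, at -0.035 and -0.08, with mitochondrial and ribosomal protein UMIs left out of the scaling, which moved every gene there by the same amount (all genes to a median of -0.04). mt-Cytb had 2929 CPM in Klrg1-detected and 2808 CPM in Ly6c1-detected lymph node cells (0.06) and 2539 and 2873 CPM in spleen (-0.18, -0.31 to -0.05). mt-Atp6 had log2 ratios of -0.02 and -0.08 and mt-Nd1 0.04 and -0.12.

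The median nuclear member had a log2 ratio of 0.07 in lymph node (-0.02 to 0.14) and 0.16 in spleen (0.08 to 0.24), below that of all genes in both, and without mitochondrial and ribosomal protein UMIs in the scaling both medians were negative. Past 1.2-fold in both libraries, 11 of 84 nuclear members were higher, against 25.4% of all genes, and 5 were lower, against 12%. Of the mitochondrial members mt-Co1 was higher and mt-Atp8, with 3 UMIs in the Klrg1-detected cells of each library, was lower. By counting interval, 7 of 84 nuclear members lay above 0 in lymph node and 17 in spleen. Over all genes 700 of 5047 and 872 of 5044 did so. Intervals lay below 0 for 7 and 6 nuclear members, against 291 and 338 genes. Shares past the fold depend on the level of a gene, and members were not matched for level.

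Single nuclear members of complexes I, IV and V differed in both libraries. Cox5a, a matrix-side subunit, had 326 CPM in Klrg1-detected and 217 CPM in Ly6c1-detected lymph node cells (log2 ratio 0.59, 0.20 to 0.96), and 410.1 and 239 CPM in spleen (0.78, 0.44 to 1.11). Its partner Cox5b had log2 ratios of 0.42 and 0.38. Cox7a2l (chr17:83501918-83517330, minus strand), which joins complexes III and IV in supercomplexes and is a member by its symbol, was lower, with 602 and 828 CPM in lymph node (-0.46, -0.72 to -0.20) and 558 and 846.5 CPM in spleen (-0.60, -0.87 to -0.34). Cox7a2, its relative inside complex IV, had log2 ratios of -0.07 in lymph node and 0.09 in spleen, with intervals on both sides of 0. In complex I, Ndufb4 of the membrane arm was lower, with 82.5 and 206 CPM in lymph node (-1.32, -2.06 to -0.66) and 144 and 216 CPM in spleen (-0.59, -1.15 to -0.07), and Ndufa1, a small membrane subunit, was higher (0.57 and 0.43). Atp5o was lower, with 227 and 304 CPM in lymph node (-0.42) and 231 and 313 CPM in spleen (-0.44).

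Genes for carriers and electron entry stand outside the symbol rule. Slc25a4 had 161 CPM in Klrg1-detected and 70.3 CPM in Ly6c1-detected lymph node cells (log2 ratio 1.19, 0.59 to 1.77), and 279 and 90.8 CPM in spleen (1.62, 1.17 to 2.06). Among cells with a Foxp3 or ICRE UMI the log2 ratio of Slc25a4 was 0.23 in lymph node (-0.91 to 1.30) and 1.61 in spleen, and weighted to equal raw depth it was 0.90 and 0.85. All 7 measured carriers and channels of that list were above 0 in both libraries, against 2166 of 5043 genes, and 4 (Ucp2, Slc25a4, Slc25a5 and Vdac3) were past 1.2-fold in both, against 25.4%. Atpif1, the inhibitor of ATP synthase, had log2 ratios of 0.66 and 1.24, and Etfb, which feeds electrons from fatty acid oxidation, 0.74 and 0.78. Cytochrome c (Cycs) was lower, with 103 and 175 CPM in lymph node (-0.77) and 127 and 189 CPM in spleen (-0.58). Among cells with a Foxp3 or ICRE UMI its lymph node ratio turned positive. Past 1.2-fold in both libraries, 3 of the 7 electron carriers and quinone synthesis genes were higher and 2 lower, 6 of 18 assembly factors were higher and none lower, and of 4 upkeep genes Tfam was higher and Ssbp1 lower, against 25.4% higher and 12% lower over all genes. The complex I assembly factor Tmem126b had log2 ratios of 1.36 and 1.39 on 12 and 13 UMIs in Klrg1-detected cells. Cycling genes summed to 384 CPM in Klrg1-detected and 113 CPM in Ly6c1-detected lymph node cells and to 641 and 70.4 CPM in spleen, and Treg markers to 3172 and 1289.98 CPM and to 3896 and 1240.5 CPM. Cytosolic ribosomal protein genes had a median of -0.35 in lymph node and -0.48 in spleen. Without cycling cells the mitochondrial complex IV log2 ratio was 0.38 in lymph node and 0.30 in spleen. B cell genes summed to 136 CPM in Klrg1-detected and 44.3 CPM in Ly6c1-detected lymph node cells and to 96 and 32.2 CPM in spleen, and without B and CD8 cells the mitochondrial complex IV log2 ratio was 0.33 in lymph node and 0.25 in spleen. The 4 NK and innate lymphoid genes, all detected in Klrg1-detected lymph node cells, summed to 115.5 CPM there and 3.85 CPM in Ly6c1-detected cells, and to 0 and 1.32 CPM in spleen. The myeloid genes summed to 276 and 126 CPM in lymph node and to 231 and 151 CPM in spleen. Csf1r was at 0 in all 4 groups, Lyz2 in both lymph node groups and Itgam in both spleen groups. Over all kept cells, Cst3 gave 1953 of the 2021 UMIs of the myeloid list in lymph node and 2820 of 3148 in spleen, so the sum mostly follows that gene. The part of NK and myeloid transcripts in the comparison was not tested.

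**Figure D4:**
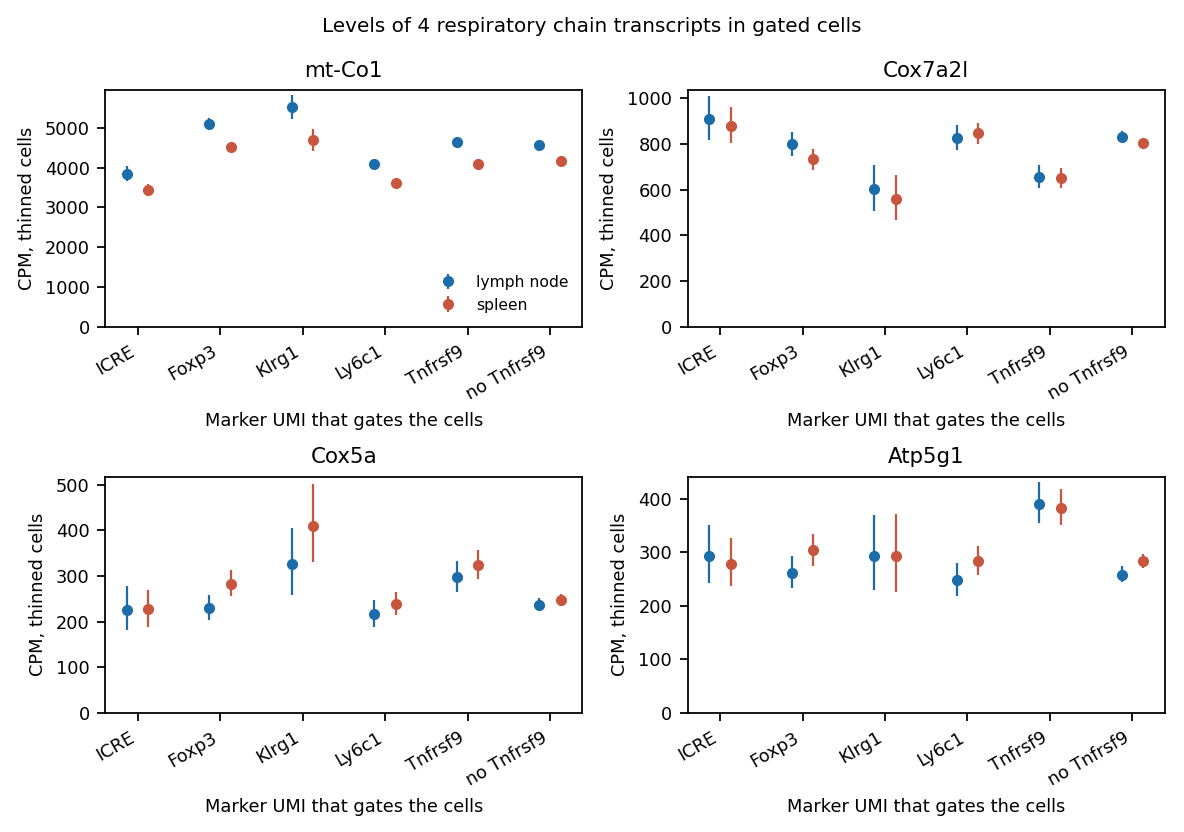
CPM of mt-Co1, Cox7a2l, Cox5a and Atp5g1 in cells thinned to 1200 UMIs (y axis, from 0), for the gates of the 3 comparisons (x axis, in pairs), with lymph node in blue, spleen in red and bars for the 95% counting interval. mt-Co1 is lowest in ICRE-detected and highest in Klrg1-detected cells in both libraries, Cox7a2l is lowest in Klrg1-detected cells, and Atp5g1 is highest in Tnfrsf9-detected cells.

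In Tnfrsf9-detected cells (872 in lymph node, 1078 in spleen) nuclear respiratory chain transcripts were higher than in Tnfrsf9-undetected cells (3696 and 4940), and mitochondrially encoded ones were close to level. The median log2 ratio of the 84 nuclear members was 0.18 in lymph node (0.13 to 0.22) and 0.19 in spleen (0.15 to 0.25), against 0.09 and 0.10 for all genes. Of these members, 72 were above 0 in lymph node and 78 in spleen, 70 of them in both, and of all genes 2429 of 5045 were above 0 in both. Past 1.2-fold in both libraries, 16 of 84 were higher, against 15.4% of all genes, a share near the background, and Cox7a2l alone was lower, against 5.37%. Counting intervals lay above 0 for 36 of the 84 members in lymph node and 44 in spleen. Over all genes they did so for 806 of 5048 and 1098 of 5045. Intervals lay below 0 for 2 and 3 members, against 340 and 445 genes. Both kinds of share depend on the level of a gene, and members were not matched to genes of like level. Most members were thus above 0, and whether large ratios are more common among them was not tested. None of the 12 mitochondrial members was 1.2-fold higher in both, and mt-Atp8 alone was 1.2-fold lower in both. The median log2 ratios of the 12 were 0.06 for lymph node and 0.03 for spleen. They turned to -0.01 and -0.05 without mitochondrial and ribosomal protein UMIs in the scaling and to -0.01 and -0.03 without thinning.

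By complex, the nuclear sums were higher in Tnfrsf9-detected cells in complex I (8293 CPM against 7433 CPM in undetected cells of lymph node and, in spleen, 8640.2 against 7665 CPM), with log2 ratios of 0.16 and 0.17. Complex V had 7095 against 6264 CPM in lymph node (0.18, 0.14 to 0.22) and, in spleen, 7515 against 6473 CPM (0.22, 0.18 to 0.25). Complex III had log2 ratios of 0.19 and 0.20 and complex II 0.13 and 0.25. In complex II, 4 of the 8 rows in the sum are assembly factors. The nuclear complex IV sum had 0.09 and 0.06, no higher than the median of all genes, whereas the median over its 11 members was 0.17 in lymph node and 0.09 in spleen. Without mitochondrial and ribosomal protein UMIs in the scaling the spleen sum was -0.02, where all genes had 0.02. Mitochondrial complex IV had 12628 against 12390 CPM in lymph node (0.03) and, in spleen, 12016 against 11871 CPM (0.02).

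Of the 3 c-ring genes of ATP synthase, Atp5g1 and Atp5g3 had some of the highest ratios, whereas Atp5g2 lay near the median of nuclear members (0.18 in lymph node, 0.19 in spleen). Atp5g1 (chr11:96068852-96075670, minus strand) had 391 CPM in Tnfrsf9-detected and 258 CPM in undetected lymph node cells (log2 ratio 0.60, 0.43 to 0.76), and 383 and 283 CPM in spleen (0.44, 0.29 to 0.58). Atp5g3 had 258 and 183 CPM in lymph node (0.50, 0.29 to 0.70) and 266 and 185 CPM in spleen (0.53, 0.35 to 0.70). Atp5g2, the most abundant of the 3, had 542 and 476 CPM in lymph node (0.19, 0.05 to 0.32) and 545 and 472 CPM in spleen (0.21, 0.09 to 0.33). Its intervals lay below those of Atp5g3 in spleen and of Atp5g1 in lymph node, and overlapped those of Atp5g3 in lymph node and of Atp5g1 in spleen. Atp5d, the delta subunit of the rotor stalk, had log2 ratios of 0.25 and 0.31.

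In complex I, the iron-sulfur subunit Ndufs8 had 140.5 CPM in Tnfrsf9-detected and 94 CPM in undetected lymph node cells (log2 ratio 0.58, 0.30 to 0.85), and 132 and 103 CPM in spleen (0.37, 0.11 to 0.61). The accessory subunits Ndufa11 (0.40 and 0.37), Ndufa5 (0.32 and 0.39) and Ndufa13 (0.25 and 0.18) were higher too. In complex II, Sdhb, its iron-sulfur subunit, had 229 and 182 CPM in lymph node (0.33) and 210.3 and 182 CPM in spleen (0.21, 0.01 to 0.40). In complex III the small subunits Uqcrq (0.34 and 0.34), Uqcrb (0.29 and 0.30) and Uqcr10 (0.28 and 0.42) led, whereas Uqcrh had 0.09 and 0.04. In complex IV, Cox5a (0.33 and 0.39), Cox5b (0.27 and 0.26) and Cox8a (0.20 and 0.28) were higher, Cox4i1 was level (0.00 and 0.02), and Cox7a2l was lower, at 657.5 against 831 CPM in lymph node (-0.34, -0.46 to -0.22) and, in spleen, 650.1 against 803.5 CPM (-0.31, -0.41 to -0.20). Among the mitochondrial genes mt-Nd1 (0.08 and 0.11) and mt-Cytb (0.08 and 0.06) were slightly above 0.

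**Figure D5:**
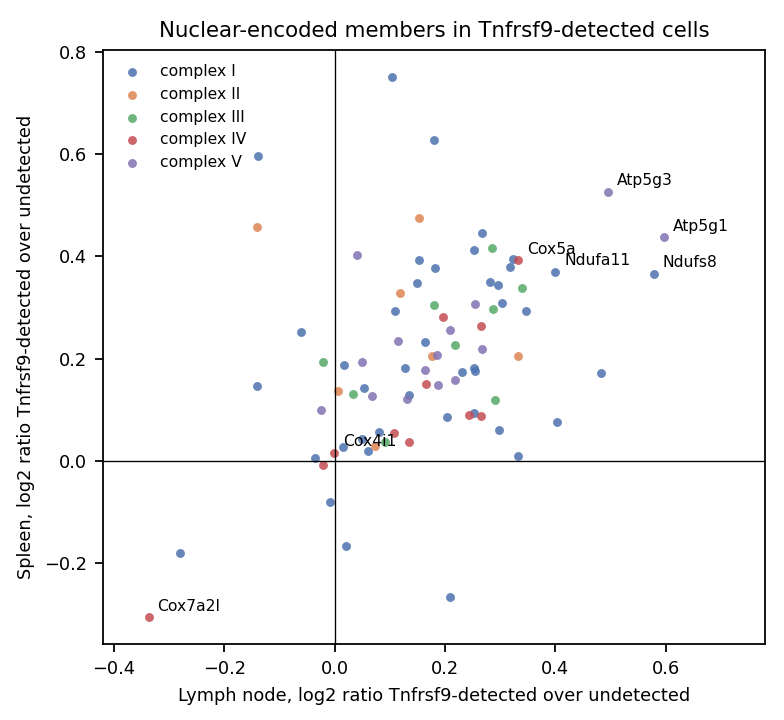
Log2 ratio of CPM, Tnfrsf9-detected over undetected cells, in lymph node (x axis) and spleen (y axis) for the 84 nuclear members at or above 20 CPM, coloured by complex. Most points lie up and right of 0, with Atp5g1, Atp5g3 and Ndufs8 farthest right and Cox7a2l farthest to the lower left.

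Of the other pathway genes, the ones with the clearest ratios in Tnfrsf9-detected cells were Ucp2, with 506 and 368 CPM in lymph node (0.46) and 437 and 357 CPM in spleen (0.29), the ATP carrier Slc25a5 (0.27 and 0.38), the phosphate carrier Slc25a3 (0.26 and 0.34), Etfb (0.46 and 0.60), Coa3, a complex IV assembly factor (0.36 and 0.42), and Atpif1 (0.35 and 0.48). Past 1.2-fold in both libraries, 2 of 7 electron carriers and quinone synthesis genes were higher and Coq10b lower, 2 of 18 assembly factors, 3 of 7 carriers and channels and 1 of 3 biogenesis regulators (Gabpb1) were higher, and none of those was lower, against 15.4% higher and 5.37% lower over all genes. Mitochondrial ribosomal protein genes had a median of 0.16 in both libraries and cytosolic ones -0.14 and -0.17. Tnfrsf9-detected cells had a median of 2504 raw UMIs in lymph node and 2541 in spleen, against 2046.5 and 1981 in undetected cells. Weighted to equal raw depth, the nuclear median was 0.15 in both libraries, against 0.10 and 0.12 for all genes. Cycling genes summed to 200 CPM in Tnfrsf9-detected and 111 CPM in undetected lymph node cells and to 226 and 81.3 CPM in spleen, and Treg markers to 2524 and 1734 CPM and to 2697 and 1683 CPM. Without cycling cells the nuclear medians were 0.16 for lymph node and 0.18 for spleen. B cell genes summed to 52.6 and 172 CPM in lymph node and to 24 and 138 CPM in spleen, and without B and CD8 cells the nuclear median was 0.17 and 0.18. Among cells with a Foxp3 or ICRE UMI it was 0.12 and 0.18.

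Promoters of nuclear members were read from RefSeq (GRCm38), 250 bases before to 50 bases after each start. Of 97 nuclear symbols, 80 had a promoter in the table. The core of the NRF1 site (GCGCA and GCGC with 1 base of any kind between them, either strand), a factor known to act on respiratory genes, was found in 21 of the 80, or 26.25%, against 5.19% of 27025 genes and 14.8% of the 4121 genes at the minimum. The ETS core bound by GABP (CCGGAAG) was in 26.25%, against 9.93% and 26.4%, the YY1 core (AAGATGG) in 15%, against 7.28% and 10.4%, and the E-box of Myc (CACGTG) in 7.5%, against 8.09% and 12.9%. The 80 include members below the minimum. In the 71 at the minimum the shares were 25.4% for the NRF1 core, 26.8% for the ETS core, 16.9% for the YY1 core and 8.45% for the E-box. The 4 motifs can overlap in a promoter and were counted separately. Of the nuclear members past 1.2-fold in Tnfrsf9-detected cells of both libraries, 14 had a promoter and 3 of these held the NRF1 core, against 15 of the 57 other members at the minimum. The promoters of the named members Ndufa11 (chr17:56717642-56717761, plus strand) and Ndufa5 (chr6:24527691-24527810, minus strand) show where it lies. The 120 bases before each start are printed 5′ to 3′ on the gene's strand, with the NRF1 core in capitals.
Ndufa11: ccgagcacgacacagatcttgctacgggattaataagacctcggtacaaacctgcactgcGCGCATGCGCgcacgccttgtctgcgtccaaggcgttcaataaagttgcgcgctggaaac
Ndufa5: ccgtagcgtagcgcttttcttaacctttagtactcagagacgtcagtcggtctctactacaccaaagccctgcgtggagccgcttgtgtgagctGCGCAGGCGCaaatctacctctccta
A match is a run of letters, not a shown binding site.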

How the data were processed

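Single-cell RNA was read with the 10x 3′ V2 kit, per the labels' protocols. The deposited files hold raw UMI counts per gene and barcode, which the authors made with Cell Ranger 3.0.1 on mm10, per the submitters' processing notes. A barcode was kept if it had 500 or more detected genes and a mitochondrial share of 10% or less. No doublet caller was run and doublets were not removed. Tissues were compared on summed counts as CPM, and gates on cells thinned to 1200 UMIs, so 252 cells of lymph node and 525 of spleen dropped out. Genes averaging at least 20 CPM were used, and a log2 ratio with a count of 0 was set at 3 counts. Intervals are exact Poisson, conditional binomial or, for shares, Clopper-Pearson (95%), and they cover counting error only, in 1 library per tissue. Those of medians are binomial over members, taken as independent of each other, and do not measure counting error.

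Genes named were, per comparison and complex, up to 3 members with the same sign in both libraries and both counting intervals apart from 0 (between tissues, the interval apart from 0), ordered by the smaller absolute ratio of the libraries, up to 3 per list of other pathway genes by the same order, the highest member of each complex, and the isoform families. Members and lists were chosen with earlier results of these data known, and the ribosomal protein lists were added after seeing the data. Alternatives changed the filters, scaling, thinning, gates and cells. Python 3.11.15 with numpy 2.4.6, pandas 2.3.3, scipy 1.17.1 and matplotlib 3.10.9 was used, and the calculation was tested on simulated data. Gene positions are from GENCODE M21 (GRCm38).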

Additional observations from a re-analysis of the deposited data

How the results depend on the processing

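No paired analysis was possible because each tissue has 1 library. The lymph node ICRE gate at 2 UMIs was not run, since fewer than 50 cells passed it. Leaving out the 6% of cells with most UMIs and leaving out cycling cells were chosen after seeing the data. Of the median results under the alternatives, 145 lay inside the interval over members of the reported value and 22 outside it, and 2 more changed sign where that interval was apart from 0. The lower mitochondrial complex IV of ICRE-detected cells kept its sign in all 12 lymph node (-0.41 to -0.25) and 13 spleen alternatives (-0.46 to -0.28), and the nuclear median of Tnfrsf9-detected cells in all 13 of each (0.11 to 0.28 and 0.11 to 0.23). In those Tnfrsf9 settings the median of all genes was above 0 too, at 0.02 to 0.10 in lymph node and 0.02 to 0.13 in spleen. The kept sign of the nuclear median therefore does not by itself set members apart from other genes. Medians that moved and all reversals follow as log2 ratios, and the cause was not tested. Another 265 values of complex sums and single genes moved outside their interval with no reversal. The moves of over 1.5 times among them were those of Slc25a4, to -0.06 (spleen ICRE) and 0.85 (spleen Klrg1) with depth weighting, 0.23 among lymph node Klrg1 cells with a Foxp3 or ICRE UMI, and 2.23 in spleen Klrg1 at 2 UMIs, and in spleen Klrg1 of Tmem126b (2.42, depth weighting) and Etfb (1.49, 2 UMIs).

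Scaling without mitochondrial and ribosomal protein UMIs gave medians of 0.0092 (nuclear) and -0.26 (mitochondrial) for lymph node ICRE, -0.050 (nuclear, reversed) for spleen ICRE, -0.092 and -0.11 for lymph node Klrg1, -0.056 (nuclear, reversed) and -0.30 for spleen Klrg1, 0.11 and -0.015 for lymph node Tnfrsf9 and 0.11 (nuclear) for spleen Tnfrsf9. It reversed nuclear complex V (-0.010) in lymph node ICRE, nuclear complexes IV (-0.034) and V (-0.048) in spleen ICRE, nuclear complexes I (-0.11), III (-0.017), IV (-0.099) and V (-0.050), mt-Co2 (-0.035) and mt-Co3 (-0.078) in spleen Klrg1, mitochondrial complex I (-0.0027) in lymph node Tnfrsf9, and mitochondrial complex III with mt-Cytb (-0.019) and nuclear complex IV (-0.018) in spleen Tnfrsf9.

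Without thinning, nuclear medians were 0.029 and 0.014 for ICRE in lymph node and spleen and 0.22 for lymph node Tnfrsf9, the mitochondrial median was -0.020 for lymph node Klrg1, and nuclear complex V reversed in ICRE (-0.018 in lymph node, -0.037 in spleen). Depth weighting gave -0.25 for the mitochondrial median of lymph node ICRE, 0.15 for the nuclear median of spleen ICRE and -0.036 for Slc25a5 in lymph node Klrg1. Gates at 2 UMIs gave 0.28 for the nuclear median of lymph node Tnfrsf9 and -0.021 for nuclear complex V of spleen ICRE. Cells with a Foxp3 or ICRE UMI gave -0.048 for the tissue nuclear median, -0.049 for the mitochondrial median of lymph node Klrg1, 0.12 for the nuclear median of lymph node Tnfrsf9, and reversed Coq10b between tissues (0.12), Cycs in lymph node Klrg1 (0.044), mitochondrial complex V in lymph node Tnfrsf9 (0.042) and Sdhb in spleen Tnfrsf9 (-0.064). With no mitochondrial limit, lymph node Tnfrsf9 had 0.10 (mitochondrial median) and 0.032 (mitochondrial complex V, reversed). With a 5% limit, Tmem126b reversed for Klrg1 (-0.15 in lymph node, -0.60 in spleen). The tissue nuclear median was -0.049 thinned and -0.052 without cycling cells, and the nuclear median of lymph node Klrg1 was -0.021 without the 6% of cells with most UMIs.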
